A study of Arabidopsis thaliana with 9 samples.

Results

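The enzymes described here are the nuclear-encoded enzymes of the Calvin cycle and of photorespiration in Arabidopsis thaliana shoots, followed through the first minute after a step to high light. They are 34 genes of the 33473 listed, picked by locus code for their place in these pathways. The Calvin cycle contributes 21 of them, namely the 4 Rubisco small subunit genes, Rubisco activase, the enzymes of the reduction and regeneration steps and the 3 CP12 genes, and photorespiration contributes 13. All 34 were found in the deposited table, all were above 0 at every exposure, and all passed the minimum mean of 5 FPKM that defined the 13946 genes used for comparison.

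Col-0 wild-type plants aged 21 days had grown at 23 °C in continuous dim light of 50 µmol m-2 s-1. The 3 groups received 1000 µmol m-2 s-1 at 21 °C for 0 s (the control), 20 s or 60 s, and whole pots were then frozen in liquid nitrogen. Each group comprised 3 pools of at least 30 plants, 9 samples in all, and all were of the same unmodified line, so that exposure is the labelled difference. The table holds 1 value per gene and exposure and none for a single pool, in FPKM, a read abundance that corrects for transcript length and for library size. No error, replicate check or test is therefore available, and the words higher and lower refer to single values. Ratios are log2 of FPKM + 1. The column sums were 817000 FPKM (0 s), 829701 FPKM (20 s) and 858218 FPKM (60 s), and the number of reads behind them is unknown. In a bulk sample, fewer cells of a type and less of an RNA per cell cannot be told apart.

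In the Calvin cycle, Rubisco joins carbon dioxide to ribulose bisphosphate, the product is reduced to triose phosphate with ATP and NADPH from the light reactions, and most of the triose phosphate is used to regenerate the acceptor. Rubisco also accepts oxygen, and photorespiration returns the resulting phosphoglycolate to the cycle through the chloroplast, the peroxisome and the mitochondrion. Several Calvin cycle enzymes are switched on in the light at the protein level, through reduction by thioredoxin and through release from the small protein CP12. Their transcripts are among the most abundant in leaves.

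The Rubisco small subunit is encoded by RBCS1A on chromosome 1, from 25048158 to 25049424 in the coordinates of the table (TAIR9), and by 3 genes side by side on chromosome 5. There RBCS3B runs from 15377173 to 15378416, RBCS2B from 15380945 to 15382035 and RBCS1B from 15384117 to 15385247. Their second coding exon of 135 bases is shown, from the RefSeq TAIR10.1 genome, because the closeness of the copies bears on how reads could be divided among them. Capitals mark bases that differ from RBCS1A, and in RBCS1A itself the 14 positions at which any other copy differs.

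RBCS1A second coding exon, chr1:25048838-25048972, minus strand: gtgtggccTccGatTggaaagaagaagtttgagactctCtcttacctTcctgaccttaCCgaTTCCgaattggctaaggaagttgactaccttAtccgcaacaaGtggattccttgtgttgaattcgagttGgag
RBCS1B second coding exon, chr5:15384761-15384895, minus strand: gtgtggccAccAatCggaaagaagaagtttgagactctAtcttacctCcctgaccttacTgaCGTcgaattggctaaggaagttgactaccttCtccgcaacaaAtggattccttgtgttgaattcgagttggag
RBCS2B second coding exon, chr5:15381583-15381717, minus strand: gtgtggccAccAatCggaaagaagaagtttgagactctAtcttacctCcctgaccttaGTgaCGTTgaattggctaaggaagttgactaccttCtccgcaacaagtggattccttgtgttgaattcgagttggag
RBCS3B second coding exon, chr5:15377911-15378045, minus strand: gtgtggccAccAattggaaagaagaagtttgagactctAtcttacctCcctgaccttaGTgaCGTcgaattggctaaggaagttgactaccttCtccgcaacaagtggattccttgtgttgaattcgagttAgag

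The copies on chromosome 5 differed from RBCS1A at 11 (RBCS1B), 12 (RBCS2B) and 11 (RBCS3B) of these bases, and from each other at 3 or 4. Over the whole coding sequence RBCS1A was 90.4% to 90.6% identical to them, whereas they were 96.7% to 97.3% identical among themselves. In exonic stretches of 50 bases, RBCS1A shared 0 with any other gene, while RBCS1B shared 12%, RBCS2B 16.9% and RBCS3B 16.5% of theirs. The value of RBCS1A thus comes from sequence of its own at that length, and the values of the other 3 depend in part on how shared reads were divided. These stretches come from RefSeq exons, which for RBCS1B reach beyond its locus of 1131 bases in the deposited table. RBCS1B and RBCS3B each shared 209 stretches, of 1747 and 1263. The lower percentage of RBCS1B thus goes with its longer RefSeq gene model. The length of the reads is not stated.

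The 34 enzymes together made up 6.35% of the FPKM sum in the control, 6.02% after 20 s and 5.89% after 60 s. Part of that decline comes from the denominator: without the antenna gene LHCB1.3 (AT1G29930), listed at 0 FPKM at 0 s and at 15970 and 18990 FPKM later, the shares were 6.35%, 6.14% and 6.02%. RBCS1A had the highest value in the whole table at 0 s, Rubisco activase the third and RBCS3B the fourth. The mean over the exposures was at least 1000 FPKM for 13 genes and at least 100 FPKM for 32. The exceptions were CP12-3 and PGLP1. The large subunit gene rbcL is chloroplast-encoded and, like all 133 chloroplast genes, was listed at 0 at every exposure, so the subunits could not be compared.

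**Figure D1:**
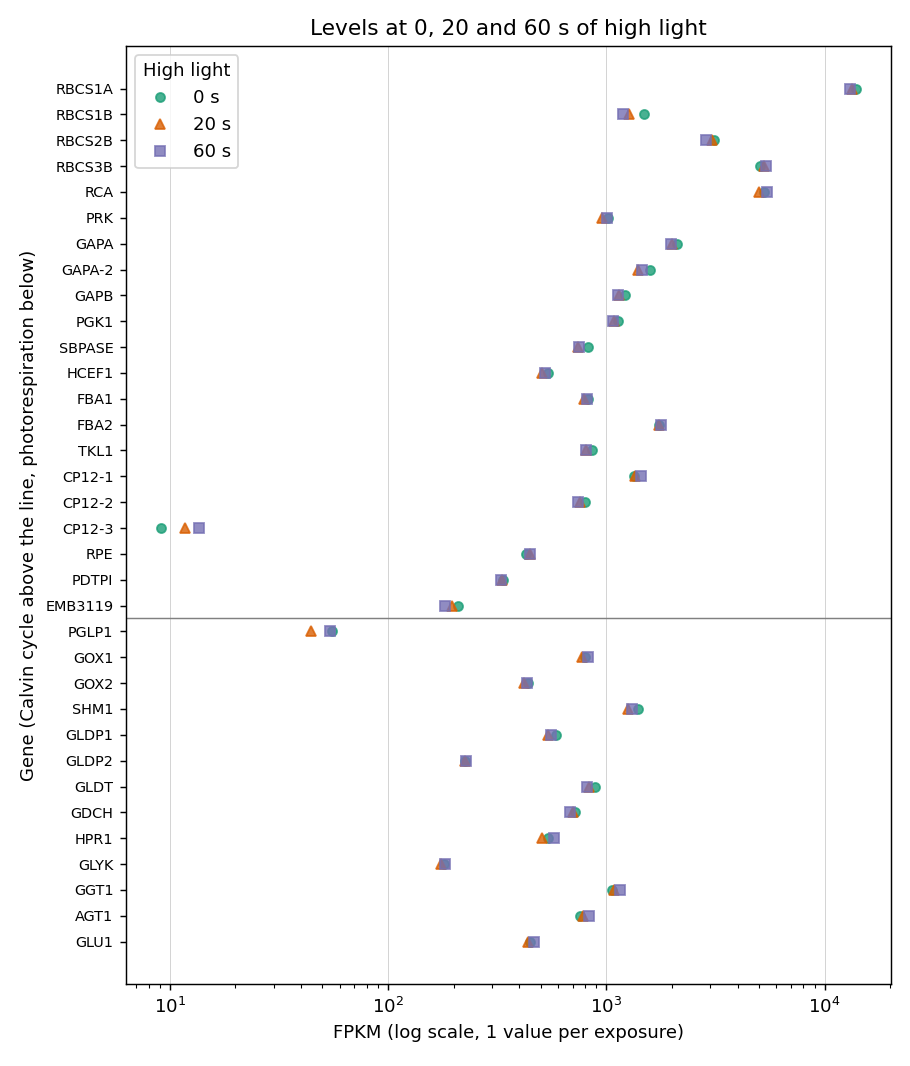
FPKM (log axis) of each of the 34 genes at 0 s (circles), 20 s (triangles) and 60 s (squares) of high light, 1 value per exposure without error bars. For most genes the 3 symbols overlap, while CP12-3 (9.11, 11.7 and 13.6 FPKM) and PGLP1 (55.6, 44.2 and 54.4 FPKM) lie far below the rest.

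The comparison of 20 s with 0 s asked whether these transcripts differed within seconds of the light step. Most stood slightly lower at 20 s: 27 of 34 genes were lower, where 51.5% of all 13946 genes were, and 7 were higher, where 48.5% of all genes were. The median log2 ratio was -0.06 (all genes: -0.0045), and the middle of the set, from the first to the last quartile, ran only from -0.09 to -0.02. The Calvin cycle had 16 of 21 genes lower (median -0.07) and photorespiration 11 of 13 (median -0.05). Under other scalings of the columns between 25 and 29 of the 34 were lower, and between 49.6% and 58.4% of all genes. High abundance goes with the same side, since of the 1354 genes averaging 100 FPKM or more 60.3% were lower (median -0.02), and its part in the result was not tested.

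Sizes were small. The limit used to count larger differences was a log2 ratio of 0.32 in either direction. CP12-3 was the single gene past it on the high side (background 5.1% of all genes) and PGLP1 the single gene on the low side (background 2%). Of the 32 enzymes averaging 100 FPKM or more, 0 passed it in any of the 3 comparisons. Few of the 1354 genes at that level did: at 20 s 3.99% on the high side and 2.66% on the low side. At 60 s against 0 s these shares were 5.83% and 2.73%, and at 60 s against 20 s 4.28% and 3.62%. Reads per gene are unknown, and the pair past the limit are the lowest-level genes of the set. At 1.1-fold, 1 gene was higher (background 16.1%) and 5 were lower (background 12.7%), the latter being PGLP1, RBCS1B, GAPA-2, SBPASE and SHM1.

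At 60 s against 0 s the set lay closer to the middle, with 21 genes lower (background 45.4%), 13 higher (background 54.6%) and a median of -0.03 (all genes: 0.01). In the Calvin cycle 15 of 21 were lower with a median of -0.08, whereas in photorespiration 6 of 13 were lower with a median of 0.00. This comparison depends on scaling: dividing each column by its sum gave 28 of 34 lower, with 18 of 21 and 10 of 13 in the pathways, while the share of all genes lower went from 45.4% to 64.7%. CP12-3 was again the single gene past 0.32 on the high side (background 5.35%), with 0 on the low side (background 2.42%). At 1.1-fold, CP12-3 alone was higher (background 20.2%), and RBCS1B and EMB3119 were lower (background 12.8%).

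**Figure D2:**
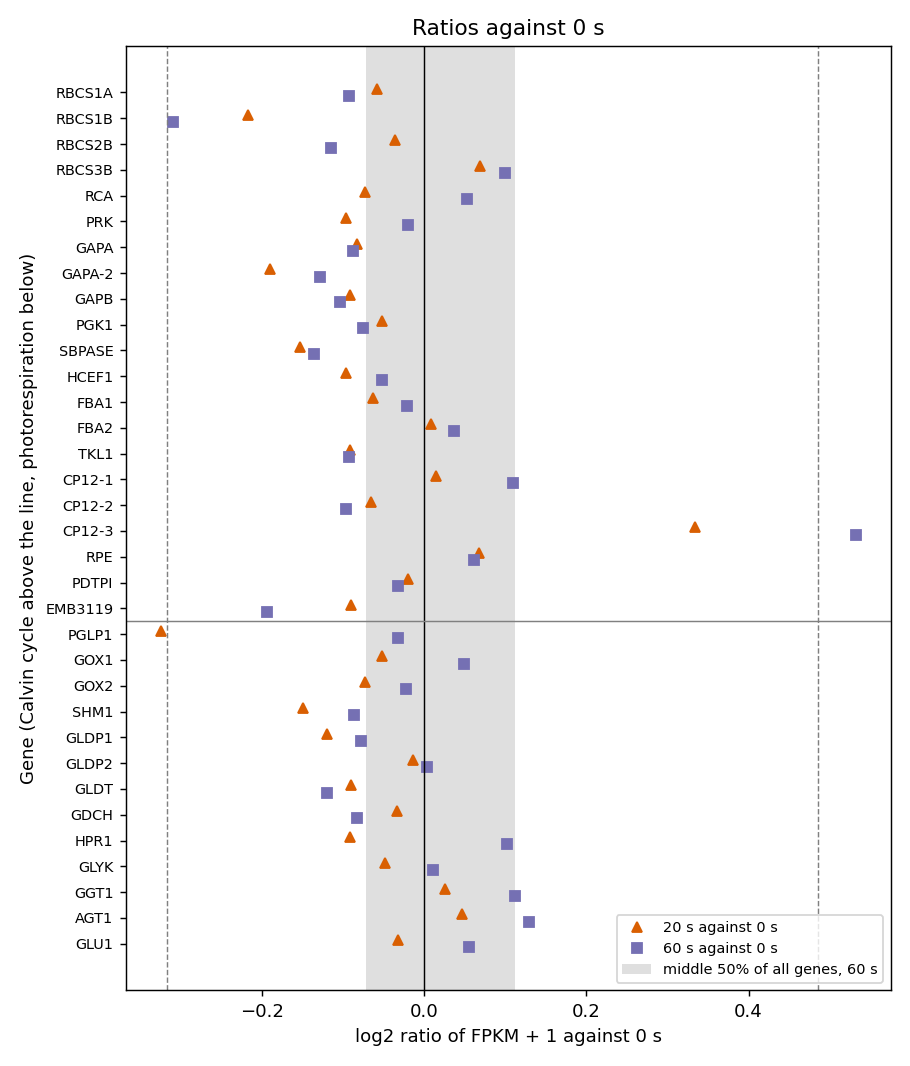
log2 ratio of FPKM + 1 against 0 s for each gene at 20 s (triangles) and 60 s (squares). The grey band holds the middle 50% of all 13946 genes at 60 s and the dashed lines their middle 95%, from -0.32 to 0.49, with CP12-3 at 60 s beyond the upper line and PGLP1 at 20 s just beyond the lower one.

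The Rubisco small subunit genes went apart by copy. RBCS1A (AT1G67090), the main copy, stood at 13889, 13342 and 13027 FPKM at 0, 20 and 60 s, a log2 ratio of -0.06 and then -0.09 against 0 s. RBCS1B (AT5G38430), the lowest copy, had 1482, 1276 and 1197 FPKM and the lowest 60 s ratio of all 34 genes (-0.31), below which lay 2.63% of all genes. RBCS2B (AT5G38420) had 3111, 3034 and 2874 FPKM (-0.04 and -0.11). RBCS3B (AT5G38410) had 5039, 5284 and 5402 FPKM (0.07 and 0.10), and was highest at 60 s where the other copies were lowest. Under quantile normalization all 4 copies, RBCS3B included, were lower at 60 s than at 0 s. That scaling sets values by rank, and RBCS3B ranked 4 in the table at 0 s and 6 at 60 s. LHCB1.3, listed at 0 FPKM at 0 s, ranked above every copy at 60 s (18990 FPKM), and so shifts their ranks. When columns were scaled by their medians or by their sums, 1 of the 4 copies was higher at 60 s, as in the deposited values.

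The summed FPKM of the 4 copies was 23522, 22936 and 22499 FPKM in the order of exposure, so the total differed less (log2 ratio -0.06 at 60 s) than RBCS1B did. RBCS1A gave 59.0%, 58.2% and 57.9% of that sum, and RBCS3B 21.4%, 23.0% and 24.0%. RBCS1B gave 6.30%, 5.56% and 5.32%, and RBCS2B 13.2%, 13.2% and 12.8%. RBCS1B and RBCS3B share the most 50-base stretches, 10.4% of those of RBCS1B, and lay on opposite sides. The part of read assignment in this was not tested.

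RCA (AT2G39730), Rubisco activase, which clears inhibitory sugar phosphates from Rubisco, stood at 5269, 5012 and 5468 FPKM. It was the fourth highest of the 34 in the ratio of 60 s to 20 s (0.13). It was thus lowest at 20 s and highest at 60 s, unlike the main subunit copy.

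All 4 enzymes of the reduction step were lower at both exposures (background 51.5% at 20 s and 45.4% at 60 s). PGK1 (AT3G12780), chloroplast phosphoglycerate kinase, had 1129, 1090 and 1071 FPKM. Of the chloroplast glyceraldehyde-3-phosphate dehydrogenase genes, GAPA (AT3G26650) had 2108, 1991 and 1984 FPKM, and GAPB (AT1G42970), which encodes the subunit carrying a regulatory extension, had 1221, 1146 and 1136 FPKM. GAPA-2 (AT1G12900) differed most, at 1587, 1391 and 1452 FPKM, with log2 ratios of -0.19 and -0.13. At 60 s the 4 ratios lay between -0.13 and -0.08, a narrow range. They stayed on the low side at 60 s under all 4 other scalings, and at 20 s in 3 of 4 scalings, with 1 gene higher under quantile normalization. GAPA and GAPA-2 are 85.8% identical in coding sequence and share 0 exonic 50-base stretches, and GAPA held 57.1%, 58.9% and 57.7% of their sum.

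Of the 9 regeneration enzymes, 7 were lower at 20 s (background 51.5%) and 7 at 60 s (background 45.4%), with medians of -0.09 and -0.03. SBPASE (AT3G55800), sedoheptulose-bisphosphatase, a thioredoxin-regulated control point of the cycle, stood at 825, 742 and 751 FPKM (-0.15 and -0.14). HCEF1 (AT3G54050), the chloroplast fructose-bisphosphatase, had 540.0, 505 and 521 FPKM, and 5.33% of its 50-base stretches lie in an overlapping gene. PRK (AT1G32060), phosphoribulokinase, which makes the carbon dioxide acceptor, had 1020, 954 and 1006 FPKM. The main transketolase TKL1 (AT3G60750) had 859, 807 and 806 FPKM. These enzymes were below their 0 s value at both exposures, by small steps.

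EMB3119 (AT3G04790), the plastid ribose-5-phosphate isomerase, was the exception in size, at 209, 196 and 183 FPKM. Its ratio of -0.19 at 60 s was the second lowest of the 34, and its ratio of 60 s to 20 s (-0.10) was the lowest. Another annotated gene overlaps it and holds 19.7% of its 50-base stretches, so its value may include reads of that gene. On the high side were RPE (AT5G61410), the ribulose-phosphate epimerase, at 428, 449 and 447 FPKM (0.07 and 0.06) and the aldolase FBA2 (AT4G38970) at 1737, 1747 and 1782 FPKM (0.01 and 0.04). The other plastid aldolase, FBA1 (AT2G21330), had 826, 791 and 814 FPKM, and FBA2 held 67.8%, 68.8% and 68.6% of the pair. PDTPI (AT2G21170), the plastid triose phosphate isomerase, had 337, 332 and 329 FPKM. Dividing the columns by their sums put all 9 regeneration enzymes, and 64.7% of all genes, below 0 s at 60 s.

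The CP12 genes encode small redox-sensitive proteins that hold GAPDH and phosphoribulokinase in an inactive complex in the dark. CP12-1 (AT2G47400) had 1335, 1349 and 1441 FPKM, with the fourth highest 60 s ratio of the 34 (0.11). CP12-2 (AT3G62410) went the other way, at 796, 761 and 745 FPKM (-0.07 and -0.10). CP12-3 (AT1G76560), on chromosome 1 from 28728253 to 28728853 (TAIR9), is the lowest gene of the set. It had 9.11, 11.7 and 13.6 FPKM and the highest ratio against 0 s at both exposures, 1.26-fold at 20 s and 1.45-fold at 60 s. Of all 13946 genes, 95.2% lay below it at 20 s and 98.0% at 60 s. At 60 s against 20 s it was 1.15-fold higher. CP12-1 was 74.5% identical to CP12-2 in coding sequence and 57.2% to CP12-3, and none of the 3 shared a 50-base stretch with any gene. The CP12 sum was 2141, 2122 and 2199 FPKM, of which CP12-3 gave under 1% throughout.

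The 250 bases before the annotated gene start are given for CP12-2 and CP12-3, whose values lay on opposite sides of 0 s, and for RBCS2B, whose region held the most motifs of those searched. Searched on both strands were the G-box CACGTG, the I-box GATAAG and the GT1 box GGTTAA, elements described in promoters of light-regulated plant genes. Capitals mark matches. The sequences are from RefSeq TAIR10.1.

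CP12-2 upstream region, chr3:23090694-23090943, plus strand: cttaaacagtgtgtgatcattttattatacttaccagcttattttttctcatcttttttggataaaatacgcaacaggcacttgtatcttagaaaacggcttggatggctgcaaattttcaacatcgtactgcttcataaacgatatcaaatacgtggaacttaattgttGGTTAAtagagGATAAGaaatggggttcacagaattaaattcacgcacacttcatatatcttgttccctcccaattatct
CP12-3 upstream region, chr1:28727956-28728205, plus strand: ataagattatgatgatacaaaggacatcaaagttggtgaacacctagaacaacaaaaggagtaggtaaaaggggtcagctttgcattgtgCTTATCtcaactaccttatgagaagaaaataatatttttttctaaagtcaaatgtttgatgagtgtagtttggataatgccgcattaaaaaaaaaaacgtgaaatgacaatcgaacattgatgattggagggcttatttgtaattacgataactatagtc
RBCS2B upstream region, chr5:15382072-15382321, minus strand: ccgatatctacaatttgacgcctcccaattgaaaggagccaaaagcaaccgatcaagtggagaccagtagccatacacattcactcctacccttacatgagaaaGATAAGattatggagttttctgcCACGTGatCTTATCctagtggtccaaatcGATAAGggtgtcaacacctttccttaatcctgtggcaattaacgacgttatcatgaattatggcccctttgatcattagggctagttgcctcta

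CP12-3 held an I-box at 160 bases before the start (position -160) and CP12-2 an I-box at -69 and a GT1 box at -80. RBCS2B held a G-box at -123 and I-boxes at -146, -115 and -94, none of them overlapping. Over the 34 genes the G-box was found in 5 (14.7%), against 6.46% of 27561 protein-coding genes. The I-box was found in 6 (17.6%, against 12.3%) and the GT1 box in 6 (17.6%, against 14.6%). An I-box was thus found both in CP12-2, lower at both exposures, and in CP12-3, higher at both. The windows were set from the RefSeq gene start, which for RBCS1A, RBCS2B and CP12-3 lies upstream of the gene start in the deposited table, so they cover other bases than windows set from that table.

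**Figure D3:**
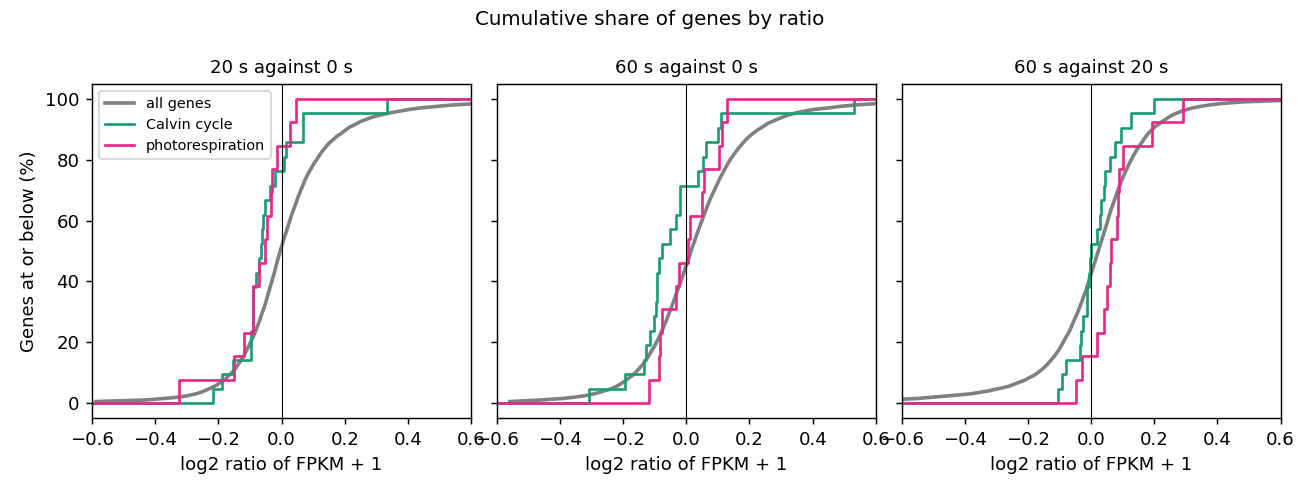
Cumulative share of genes (vertical axis, %) by log2 ratio of FPKM + 1 (horizontal axis) in each comparison, for all 13946 genes (grey), the 21 Calvin cycle genes (green) and the 13 photorespiratory genes (pink). At their medians both sets lie left of all genes at 20 s (-0.07 and -0.05), the Calvin cycle also at 60 s against 0 s (-0.08), and photorespiration lies to the right at 60 s against 20 s (0.06).

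Photorespiration begins in the chloroplast with PGLP1 (AT5G36700), the phosphoglycolate phosphatase gene on chromosome 5 from 14421635 to 14424490 (TAIR9), at 55.6, 44.2 and 54.4 FPKM. It had the lowest 20 s ratio of the 34 (log2 ratio -0.32, with 1.98% of all genes below it) and the highest ratio of 60 s to 20 s (0.29). PGLP1 and AT5G36790 have identical coding sequences over 1089 bases, and 90.8% of the exonic 50-base stretches of PGLP1 also lie in AT5G36790, so the division of reads between them is uncertain. AT5G36790 itself stood at 69.9, 61.3 and 70.5 FPKM. Their sum, which does not depend on that division, was 126, 106 and 125 FPKM, a log2 ratio of -0.25 at 20 s and -0.01 at 60 s. The other chloroplast enzymes were likewise lowest at 20 s, by less. GLYK (AT1G80380), glycerate kinase, which returns the carbon to the Calvin cycle, had 181, 175 and 182 FPKM. GLU1 (AT5G04140), the ferredoxin-dependent glutamate synthase that recovers the released ammonium, had 447, 437 and 464 FPKM.

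The remaining steps are given by compartment, a grouping made after the values were seen. All 5 peroxisomal enzymes were higher at 60 s than at 20 s (background 57.6%), under the deposited values and under all 4 other scalings. Against 0 s, 4 of 5 were higher at 60 s (background 54.6%), with a median of 0.10 (all genes: 0.01). When columns were divided by their sums 3 of 5 were higher, with 64.7% of all genes lower. AGT1 (AT2G13360), which passes amino groups from serine to glyoxylate, had 759, 784 and 830.0 FPKM (0.05 and 0.13). GGT1 (AT1G23310), the glutamate:glyoxylate aminotransferase, had 1063, 1083 and 1150 FPKM (0.03 and 0.11). HPR1 (AT1G68010), hydroxypyruvate reductase, had 538, 505 and 578 FPKM, the third highest ratio of 60 s to 20 s (0.19).

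The glycolate oxidase genes lie next to each other on chromosome 3, GOX2 (AT3G14415) from 4818298 to 4821006 and GOX1 (AT3G14420) from 4821523 to 4824178 (TAIR9), and are 92.4% identical in coding sequence without sharing a 50-base stretch. GOX1 had 798, 770.0 and 826 FPKM, and GOX2 had 440, 418 and 433 FPKM. GOX1 held 64.5%, 64.8% and 65.6% of the pair, a difference of about 1 percentage point.

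In the mitochondrion glycine is turned into serine with release of carbon dioxide and ammonium. There all 5 enzymes were lower at 20 s (background 51.5%), as under all 4 other scalings. At 60 s 4 of 5 were lower (median -0.08, background 45.4%), and 5 of 5 under 3 of the other scalings. Those scalings also raised the share of all genes lower at 60 s, to between 54.3% and 64.7%. SHM1 (AT4G37930), serine hydroxymethyltransferase, had 1391, 1254 and 1311 FPKM (-0.15 and -0.09). Of the glycine decarboxylase complex, the P-protein gene GLDP1 (AT4G33010) had 587, 541 and 557 FPKM and its copy GLDP2 (AT2G26080) had 226, 224 and 227 FPKM, with GLDP1 at 72.2%, 70.7% and 71.0% of the pair. The T-protein gene GLDT (AT1G11860) had 886, 832 and 815 FPKM (-0.09 and -0.12). The H-protein gene GDCH (AT2G35370) had 721, 704 and 681 FPKM, the fourth lowest ratio of 60 s to 20 s (-0.05).

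**Figure D4:**
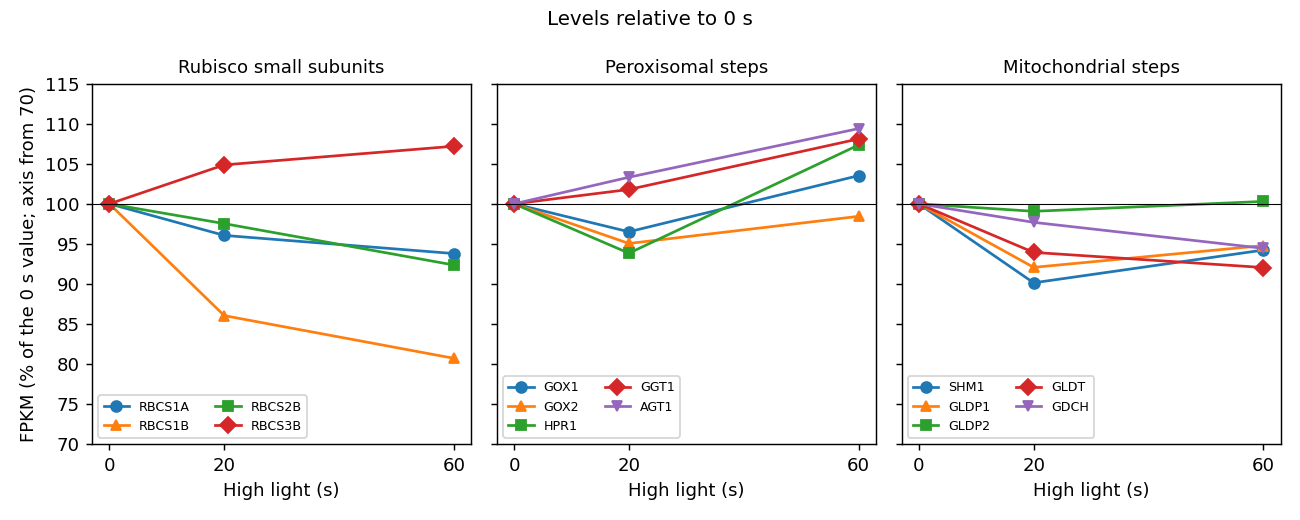
FPKM as a percentage of the 0 s value (vertical axis, starting at 70) against seconds of high light, for the Rubisco small subunit copies, the 5 peroxisomal and the 5 mitochondrial enzymes of photorespiration, 1 value per exposure. RBCS3B lies above 100 and the other copies below it, all peroxisomal lines go up from 20 to 60 s, and mitochondrial genes other than GLDP2 end below 100.

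Between 20 and 60 s, 21 of the 34 genes were higher (background 57.6%) and 13 lower (background 42.4%), with a median of 0.04 (all genes: 0.02). PGLP1, CP12-3 and HPR1 were at least 1.1-fold higher (background 18.1%) and 0 were as much lower (background 12.8%), and 0 passed 0.32 on the high (background 2.98%) or the low side (background 4.07%). Photorespiration had 11 of 13 higher, with a median of 0.06, while the Calvin cycle had 10 of 21 higher and a median of -0.0015. For the whole set the direction rests on scaling, since 14 of 34 were higher and 20 lower when columns were divided by their sums, with 57.5% of all genes lower. With LHCB1.3 left out of the sums 15 were higher and 19 lower (all genes: 56.3% lower), and under quantile normalization 12 were higher and 19 lower (all genes: 46.5% lower). For photorespiration 9 or 10 of 13 were higher under those settings and median scaling. Counting by order, 21 of 34 genes had their highest value at 0 s, against 31.9% of all genes, and 1 gene, RPE, had it at 20 s, against 27.1%. The order 0 s, then 20 s, then 60 s from high to low held for 12 genes (35.3%, against 15.4% of all genes and 20.2% of those averaging 100 FPKM or more), 10 of them in the Calvin cycle. The lowest value fell at 20 s for 9 of 13 photorespiratory genes (69.2%) and for 6 of 21 Calvin cycle genes (28.6%), against 36.1% of all genes. These 3 comparisons share columns and are not independent of each other.

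Other genes of the same pathways, chosen as lists by role, gave a wider view. Of 12 genes for Rubisco folding, assembly and upkeep, 11 were lower at 20 s (background 51.5%) and 9 at 60 s (background 45.4%). Their medians were -0.10 and -0.07. RBCX1, a Rubisco assembly chaperone, had 69.8, 60.4 and 70.6 FPKM. The chaperonin subunit genes CPN60B1 (416, 399 and 374 FPKM) and CPN60B2 (109, 103 and 98.4 FPKM) were the lowest at 60 s. CPN20, the co-chaperonin, had 616, 618 and 579 FPKM and RBCX2 had 104, 102 and 105 FPKM, the highest ratios of the list at 20 s. At 60 s 0 of 12 were higher under each of the 4 other scalings, against 3 of 12 in the deposited values. The share of all genes lower at 60 s also went up under those scalings, from 45.4% to between 54.3% and 64.7%, which applies to each list at 60 s.

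Among 19 further photorespiratory genes above 5 FPKM (GOX3 and BASS6 were below it), 15 were lower at 20 s (background 51.5%). At 60 s 12 were lower (background 45.4%), and the medians were -0.06 and -0.05. Under each of the 4 other scalings 2 of 19 were higher at 60 s, against 7 in the deposited values. DIT1, the chloroplast oxoglutarate/malate exchanger, had 271, 232 and 240.3 FPKM, the lowest ratio of the list at 20 s (-0.22). The lipoamide dehydrogenase gene mtLPD2 had 66.7, 63.8 and 56.1 FPKM, the lowest at 60 s (-0.24). CAT2, the peroxisomal catalase that removes the hydrogen peroxide made by glycolate oxidase, had 594, 557 and 666 FPKM, the highest at 60 s (0.17). DIT2.2 had 21.7, 19.9 and 23.5 FPKM. At 20 s the highest were GLU2 (14.3, 15.4 and 14.6 FPKM) and the peroxisomal malate dehydrogenase PMDH1 (38.1, 40.6 and 35.2 FPKM), while the more abundant PMDH2 had 641, 597 and 651 FPKM. With CAT2, PMDH1 and PMDH2 added to the 5 peroxisomal enzymes, 6 of 8 were higher at 60 s than at 0 s (background 54.6%). Against 20 s, 7 of 8 were higher at 60 s (background 57.6%). PMDH1 was lower in both comparisons (-0.11 and -0.20). These added genes were picked by name from the list, and GGT2, a relative of GGT1 in the same list, was left out. GGT2 had 66.4, 60.2 and 65.7 FPKM, lower at 60 s than at 0 s (-0.01) and higher than at 20 s (0.12).

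Of 7 other isoforms and partners of the Calvin cycle enzymes above 5 FPKM (TKL2 was below it), 4 were lower at 20 s (background 51.5%). At 60 s 2 were lower (background 45.4%), though 4 were lower under each of the 4 other scalings. RPI2, a ribose-5-phosphate isomerase gene, stood furthest out at 43.4, 26.0 and 29.6 FPKM, 1.65-fold lower at 20 s and 1.45-fold lower at 60 s. The gene AT2G01280 overlaps its locus, so the value of RPI2 may include reads of that gene. RPI1, a relative of RPI2, had 14.8, 17.6 and 16.0 FPKM. The fructose-bisphosphatase gene AT5G64380 had 15.5, 16.6 and 20.1 FPKM, 1.28-fold higher at 60 s. The aldolase FBA3 had 70.01, 78.0 and 70.5 FPKM, AT5G44520 had 33.1, 31.3 and 33.2 FPKM, and the phosphoglycerate kinase gene AT1G56190 had 199, 194 and 186 FPKM. In this list, too, the genes past 0.32 from 0 s were among those under 100 FPKM.

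Of 9 genes listed as cytosolic counterparts, most of which serve glycolysis and sucrose synthesis, 6 were lower at 20 s (background 51.5%). At 60 s 5 were lower (background 45.4%), and the medians were -0.01 and -0.03. The aldolase FBA6 had 83.8, 72.5 and 89.0 FPKM, FBA4 had 8.42, 8.45 and 9.58 FPKM and FBA8 had 162, 159 and 147 FPKM. GAPC1 had 378, 377 and 342 FPKM, PGK3 (AT1G79550) had 161, 151 and 147 FPKM, TPI had 397, 407 and 388 FPKM and AT1G63290 had 28.0, 29.7 and 31.5 FPKM. At 20 s their median lay nearer to that of all genes than the median of the plastid enzymes did.

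**Figure D5:**
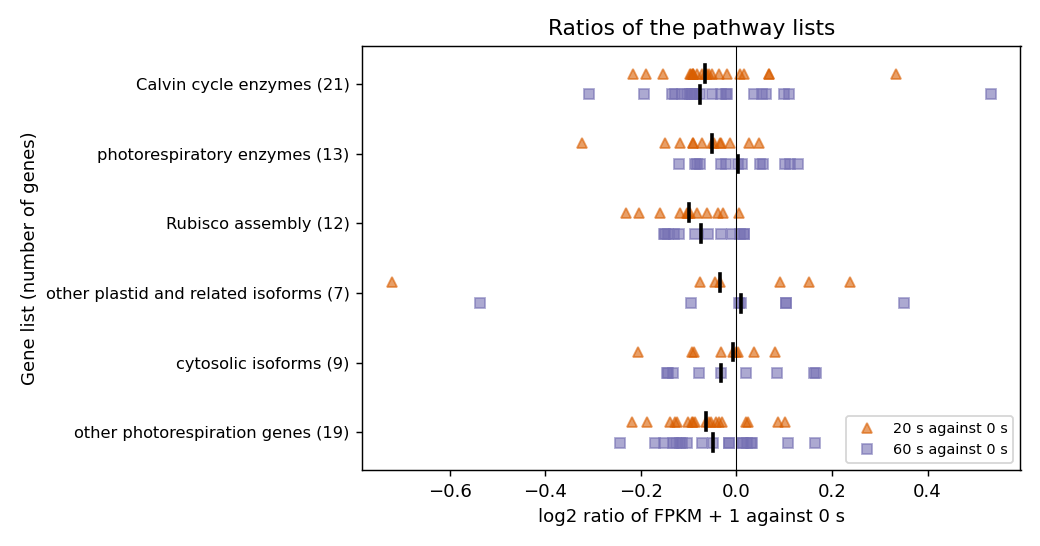
log2 ratio of FPKM + 1 against 0 s for each gene of the 34 enzymes and of 4 lists of related genes, at 20 s (triangles) and 60 s (squares), with black bars at the medians. The Rubisco assembly list has the lowest median at 20 s (-0.10), and RPI2 is the point farthest to the left.

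Marker genes were set against the shoot label: 5 root markers stood at or under 0.601 FPKM at every exposure, EXPA7 being listed at 0 throughout, and 4 leaf genes between 1960 and 3573 FPKM. Of those leaf genes, the antenna genes LHCB3 and LHCA1 and the photosystem I gene PSAD1 had log2 ratios of 0.22, 0.33 and 0.15 at 60 s, on the other side from most Calvin cycle enzymes. The carbonic anhydrase gene CA1 had -0.05. The summed level of the 4 guard cell markers was 40.2, 34.7 and 38.0 FPKM, that of the 3 epidermal markers 447, 452 and 472 FPKM, and that of the 4 vascular markers 112, 108 and 118 FPKM. All 4 guard cell markers were lowest at 20 s, at low levels, with HT1 (2.98, 2.23 and 2.65 FPKM) under the minimum mean of 5 FPKM. Of the 34 enzymes 15 were lowest at 20 s (44.1%), against 36.1% of all genes and 40.1% of those averaging 100 FPKM or more. The vascular sum was also lowest at 20 s, through SUC2 (78.3, 73.5 and 82.5 FPKM), whereas APL and XCP1 were lowest at 0 s. Of the epidermal markers ATML1 and FDH were lowest at 20 s and PDF1 at 0 s. The part of tissue makeup in the ratios was not tested.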

How the data were processed

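The authors sequenced RNA of 9 shoot samples and deposited 1 FPKM value per gene for each of the 3 exposures. The submitters' processing notes name TopHat, Bowtie and Cufflinks and the TAIR9 build. Versions, read length, strand handling and the way in which the pools of an exposure were combined are not stated there or in the labels. Limma on single samples had been planned, but with 1 value per exposure only log2 ratios with a pseudocount of 1 FPKM were computed, with no test. Columns were matched by name, and 0 were left over. Ratios between columns of 1430 genes under 0.2 FPKM were counted in bins of 0.004 log2. The fullest bin held 20 genes for 20 s against 0 s, where the mean was 0.943 per bin. It held 12 for 60 s against 0 s and 13 for 60 s against 20 s. That mean covers the whole range and not its middle, so gathering on shared values was not settled. Whole reads were not recovered from these ratios, so depth is unknown and sets no interval.

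The enzymes, the other lists and the fold limit (0.32 in log2) were chosen with earlier results of these data known. All 34 enzymes were named, in each comparison with the 4 at either end of the ratios, and from each other list the 2 genes at either end against 0 s. Values of 1 gene under that rule and 1 sequence are not reported here. Genes named beyond that rule are TKL2, GOX3, BASS6, PMDH2, GGT2, the marker genes and LHCB1.3. Coordinates of the table were shifted by 1 to count from 1. Sequences and overlaps came from RefSeq TAIR10.1, matched by locus code. The ratio step was tested on simulated data. Python 3.11.15, pandas 2.3.3, numpy 2.4.6, Biopython 1.88 and matplotlib 3.10.9 were used. Alternatives were other pseudocounts, 4 scalings (1 of them, sums without LHCB1.3, added after seeing the data), other fold limits, other level filters and the enzymes without gene copies.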

Additional observations from a re-analysis of the deposited data

How the results depend on the processing

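No paired analysis was possible because the table holds 1 value per exposure and no replicate numbers, and for the same reason no replicate could be left out. Of 179 recomputed values, 140 stayed within 0.05 log2 or 1.5-fold of the reported one. Some of the 140 could not move, so this total does not measure stability. A pseudocount does not change which of 2 values is higher, and a count of 0 stays 0 at a higher limit or in fewer genes. No median ratio was past the limit of 0.32, so a change of sign past it could not be seen. The tolerance of 0.05 is larger than some of the medians, which could therefore change sign within it. Median ratios at 60 s against 0 s moved when columns were divided by their sums, to -0.10 for all 34 genes, -0.15 for the Calvin cycle and -0.0664 for photorespiration. For all 34 genes the median of 60 s against 20 s was -0.0266 under quantile normalization, on the other side of 0 from the reported 0.04. It was also below 0 under scaling by sums (-0.0122) and by sums without LHCB1.3 (-0.008). For photorespiration at 60 s against 0 s the reported 0.0043 became -0.0314 under scaling by medians and -0.0342 by sums without LHCB1.3. Counts past a log2 ratio of 0.32 rest on 1 gene each. The gene counted higher at 20 s was lost (0) with a pseudocount of 10 FPKM, with scaling by sums, at limits of 1.5-fold and 2-fold and without gene copies, and at 60 s with the same settings other than scaling by sums. The gene counted lower at 20 s was lost (0) with a pseudocount of 10, sums without LHCB1.3, both higher limits and without copies, and became 2 genes under quantile normalization. At 60 s the count lower went from 0 to 1 under scaling by medians, by sums and by sums without LHCB1.3, and to 2 under quantile normalization. Scaling by sums gave 6 genes higher at 60 s than at 0 s, 20 lower at 60 s than at 20 s, 5 highest at 60 s and 19 lowest at 60 s. Quantile normalization gave 12 higher at 60 s than at 20 s and 7 highest at 60 s. Without gene copies 18 genes were left, by construction with smaller counts: 3 higher and 15 lower at 20 s, 7 higher and 11 lower at 60 s, 10 higher and 8 lower between 20 and 60 s, 11 highest at 0 s, 6 highest at 60 s, 8 lowest at 20 s and 7 lowest at 60 s. The cause of the other moves was not tested. Without a level filter, which adds genes listed at 0, 35.2% of all 33473 genes were lower at 20 s. Scalings moved the median of all genes by at most 0.07 log2, and most ratios of the enzymes are of that order.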
